A study of Mus musculus with 9 samples.

Results

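The glucocorticoid receptor gene *Nr3c1* and 5 genes that the receptor is known to induce, *Tsc22d3*, *Fkbp5*, *Klf9*, *Ddit4* and *Sgk1*, were followed across splenic type 2 dendritic cells (DC2) from young and adult mice. The 6 genes were taken by symbol from the 24054 genes of the count tables, and all 6 were among the 14452 genes tested. RNA-seq had been done on 9 libraries, 3 in each of 3 groups: TOM+ cDC2 from mice at postnatal day 8, TOM- DC2 from mice of the same age, and TOM+ cDC2 from adult mice of 8 weeks (2 libraries) or 9 weeks (1 library). All groups shared the strain (C57BL/6), the tissue (spleen) and the genotype Clec9a-Cre/Cre Rosa-tdTomato/tdTomato, so that every mouse carried both Cre alleles and no Cre-free control entered the comparisons. Cre is driven from *Clec9a*, a gene of dendritic cell precursors, and the red protein tdTomato (TOM) marks a cell whose ancestors, or which itself, once used that gene. TOM+ and TOM- cells therefore differ in labelling history, and TOM- cells can include cells whose precursors escaped labelling. All cells were sorted as live, single, autofluorescence-negative cells with surface MHCII, CD11c and CD11b. Spleens of young mice were pooled before the sort, and nothing in the labels says whether the adult libraries came from separate mice, so the p-values below measure the spread between these libraries, which may in part be technical.

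Glucocorticoids are steroid hormones of the adrenal gland that pass through the cell membrane and bind the receptor encoded by *Nr3c1*, which waits in the cytosol in a complex with HSP90 and its cochaperones. The bound receptor enters the nucleus and sits on DNA at palindromic response elements, where it switches on genes that dampen inflammation and adjust metabolism, and it also holds back genes driven by NF-kB and AP-1. In dendritic cells, glucocorticoids are known to blunt maturation and the release of inflammatory cytokines, with GILZ, the product of *Tsc22d3*, as an effector. FKBP51, the product of *Fkbp5*, closes a feedback loop by lowering the receptor's affinity for hormone. None of these genes answers to glucocorticoids alone: *Ddit4* also responds to hypoxia and amino acid shortage, *Sgk1* to cell volume and mineralocorticoids, and *Klf9* to thyroid hormone. No hormone level was measured in these mice.

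The start regions of the genes are shown because the receptor acts through DNA near its targets. RefSeq start windows of the build GRCm38.p6 were on hand for 5 of the 6 genes, 12 windows in all, each reaching from 250 bases before a transcript's start to 50 bases after it. The full palindrome of the glucocorticoid response element (AGAACA, any 3 bases, then TGTTCT) stood in 3 of 32851 mouse windows (0.00913%). *Sgk1*, which encodes serum- and glucocorticoid-regulated kinase 1, held it in 1 of its 6 windows, chr10:21993640-21993939 on the plus strand, and the other 2 windows belonged to *Acnat2* and *Gm35041*. The *Sgk1* palindrome, in capitals here, began 189 bases before the transcript's start.
Sgk1: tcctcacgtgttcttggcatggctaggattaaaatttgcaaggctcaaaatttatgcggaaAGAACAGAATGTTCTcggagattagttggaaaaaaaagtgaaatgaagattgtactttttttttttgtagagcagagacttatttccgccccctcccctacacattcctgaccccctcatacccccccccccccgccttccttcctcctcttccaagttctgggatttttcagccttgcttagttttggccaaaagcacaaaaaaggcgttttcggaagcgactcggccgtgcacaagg
The windows of *Tsc22d3* held no full palindrome, but the window of its outermost start, chrX:140600473-140600772 on the minus strand, held a lone arm of it, in capitals, 185 bases before the start. A lone arm (AGAACA on either strand) stood in 19.0% of all windows.
Tsc22d3: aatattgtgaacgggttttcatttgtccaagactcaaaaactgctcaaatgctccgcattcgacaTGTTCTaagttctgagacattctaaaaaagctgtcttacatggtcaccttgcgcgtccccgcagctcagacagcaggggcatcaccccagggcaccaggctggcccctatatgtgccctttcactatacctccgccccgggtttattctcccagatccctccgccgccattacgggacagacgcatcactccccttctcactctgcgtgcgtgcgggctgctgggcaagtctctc
*Klf9*, which encodes a zinc finger transcription factor of the Krüppel-like family, is the gene that differed most between ages below. Its window, chr19:23140976-23141275 on the plus strand, held neither the palindrome nor an arm. It held a match to TGANTCA, a loose form of the AP-1 site with any middle base, in capitals, 89 bases before the start. The middle base here was A, whereas the stricter AP-1 site has C or G there. The loose form stood in 7.81% of windows, on either strand.
Klf9: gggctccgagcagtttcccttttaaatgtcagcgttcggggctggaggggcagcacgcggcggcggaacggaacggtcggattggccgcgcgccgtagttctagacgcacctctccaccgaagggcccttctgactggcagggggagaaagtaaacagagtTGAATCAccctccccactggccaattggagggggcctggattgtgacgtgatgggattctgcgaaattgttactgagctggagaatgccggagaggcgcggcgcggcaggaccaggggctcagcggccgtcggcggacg
With up to 2 mismatches in the 12 fixed bases, the palindrome was found in 1.84% of windows and in 2 of the 12 listed here, both of *Sgk1*. The windows of *Fkbp5* (chr17:28486100-28486399) and *Ddit4* (chr10:59951721-59952020), both on the minus strand, held neither the palindrome nor an arm. A match says only that these letters are there, and no binding was measured in these data. Elements outside these windows would not be seen, so the lack of a match does not mean that a gene has none.

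The libraries held 12783252 to 22809401 reads counted to genes, with the adult libraries at 12783252 to 16809639. Markers of cDC2 were high in every library, with a summed level of 58590 to 65750 TPM (a level per transcript length, scaled to the library) in the young groups and 92390 to 95390 TPM in adults. Nearly all of that sum came from the MHC class II genes *Cd74* (40692.47 to 47228.75 TPM in young and 61473.03 to 64182.42 TPM in adult libraries) and *H2-Ab1*. With edgeR at an adjusted p under 0.05, 8 of the 9 markers (88.9%) differed between each young group and adults. The shares of all genes tested were 40.6% for young TOM+ and 36.3% for young TOM- cells. In each young group 6 were lower, beside 19.5% and 16.9% of all genes, and 2 were higher, beside 21.0% and 19.4%. The higher ones were *Itgam* (125.78 to 168.49 TPM against 73.03 to 86.22 TPM) and *Sirpa* (638.07 to 862.4 TPM against 462.71 to 484.74 TPM). *Clec9a* itself was near 0 (0.05 to 0.34 TPM). Markers of T and NK cells summed to at most 6.46 and 0.66 TPM. Markers of group 3 innate lymphoid cells summed to 22.72 to 30.07 TPM in young TOM- DC2 and to at most 0.89 TPM elsewhere, and 1 young TOM- library (replicate 1) held 643.4 TPM of erythroid markers against at most 40.1 TPM in any other. Markers of migratory dendritic cells (*Ccr7*, *Fscn1*, *Ccl22*, *Socs2*, *Cacnb3*) summed to 459.2 to 663.2 TPM in the young libraries and to 1735 to 2665 TPM in adults. In bulk RNA, fewer cells of a type and less RNA per cell cannot be told apart. The parts that these markers play in the differences below were not tested.

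Across the 6 genes, *Klf9* was 3.47 and 3.92 times lower in young TOM+ and young TOM- cells than in adult TOM+ cDC2, *Sgk1* was 1.33 times lower in young TOM- DC2 than in adults, and *Nr3c1* was at much the same level in all 9 libraries. *Tsc22d3* was lower in the young groups by a margin that missed the threshold, and *Fkbp5* and *Ddit4* did not pass. Between young TOM+ and young TOM- cells none of the 6 genes passed the test. An adjusted p (padj) under 0.05 from edgeR's quasi-likelihood test, adjusted over all 14452 genes, is called passing here. For young TOM+ cDC2 against adult TOM+ cDC2, 1 of the 6 genes passed, beside 40.6% of all genes tested. For young TOM- DC2 against the same adults it was 2 of 6, beside 36.3%, and these comparisons share the adult libraries.

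**Figure D1:**
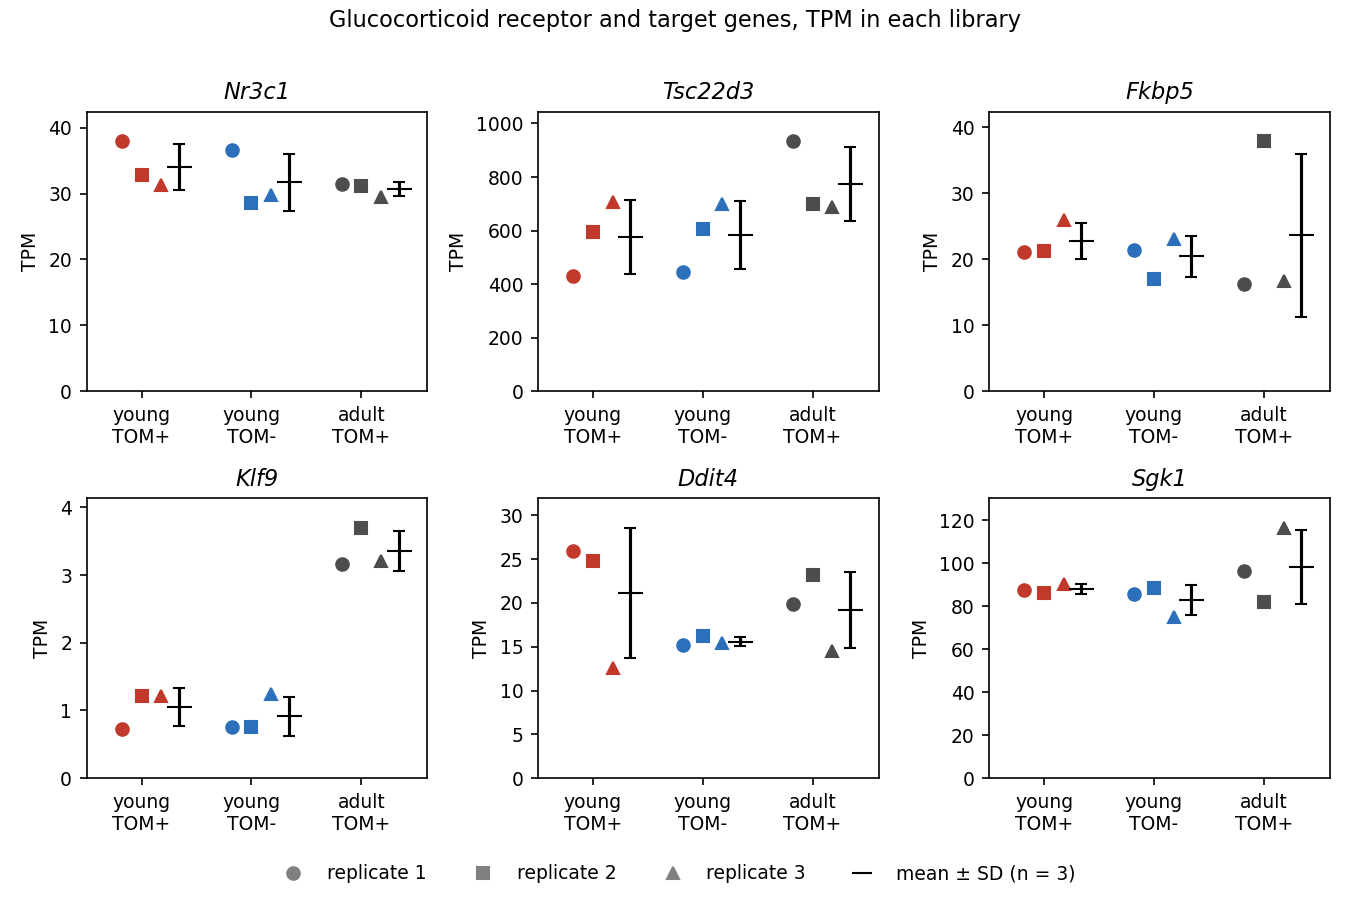
Level of each of the 6 genes in TPM (vertical axes, from 0) in the 3 libraries of each group (horizontal axes), with the mean ± SD beside the points. *Klf9* in adult cDC2 (3.17 to 3.69 TPM) stands above both young groups (0.73 to 1.24 TPM), and *Fkbp5* in adult replicate 2 (37.85 TPM) stands above the other 8 libraries (16.27 to 25.89 TPM).

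The receptor gene *Nr3c1* (chromosome 18, 39410545 to 39519421 in GRCm38.p6) was the steadiest of the 6. Its level was 37.9, 32.84 and 31.34 TPM in young TOM+ cDC2, 36.63, 28.6 and 29.84 TPM in young TOM- DC2, and 31.48, 31.11 and 29.48 TPM in adult TOM+ cDC2. The 3 groups overlapped, and replicate 1 was the highest of its group in each. The same held for 52.8% (young TOM+), 52.7% (young TOM-) and 29.7% (adult) of all tested genes. The fitted log2 difference, young TOM+ minus adult, was 0.02 (SE 0.0892, 95% interval -0.18 to 0.21, edgeR padj = 0.887). For young TOM- minus adult it was -0.11 (95% interval -0.30 to 0.08, edgeR padj = 0.359). The spread of *Nr3c1* between libraries of a group was at percentile 15.5 of all tested genes, the lowest of the 6. Reads for the mineralocorticoid receptor *Nr3c2*, which also binds corticosterone, were almost absent, at 0 to 0.15 TPM.

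Of 12 genes of the receptor's chaperone complex, 2 (16.7%) passed in young TOM+ against adult cDC2, both higher in young cells, beside 40.6% of all genes. In young TOM- DC2 1 (8.33%) passed, beside 36.3%. *Bag1*, a cochaperone of HSP70, was 1.31 times higher in young TOM+ cDC2 (log2 difference 0.39, SE 0.0813, edgeR padj = 0.00239) and 1.25 times higher in young TOM- DC2 (padj = 0.00809). *Ppid*, which encodes the immunophilin cyclophilin 40, was 1.22 times higher in young TOM+ cDC2 (padj = 0.0242). The median log2 difference over the 12 genes was 0.12 and 0.07, beside 0.05 and 0.07 over all genes. Coregulators that the receptor recruits passed in both directions: of 14, 4 were higher and 5 lower in young TOM+ than in adult cDC2, beside 21.0% and 19.5% of all genes, and 2 were higher and 4 lower in young TOM- DC2, beside 19.4% and 16.9%. The coactivator genes *Ncoa3* (1.6 times, padj = 0.00159) and *Ncoa2* (1.48 times, padj = 0.00168) were lower in young TOM+ cDC2. In young TOM- DC2 *Ncoa3* was 1.64 times lower (edgeR padj = 0.00129), and *Ncoa2* was at 12.08 to 16.94 TPM against 16.8 to 18.61 TPM in adults.

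*Fkbp5* (chromosome 17, 28398753 to 28486149), the feedback gene, was set apart by a single library. It lay at 21.15, 21.19 and 25.89 TPM in young TOM+ cDC2 and at 21.37, 16.99 and 22.99 TPM in young TOM- DC2. In adult TOM+ cDC2 it lay at 16.27, 37.85 and 16.73 TPM, so that replicate 2 was 2.36 times the mean of the other 2 adult libraries on the CPM scale (counts scaled to the library), while those 2 lay at 40.94 and 40.54 CPM. The log2 difference with all libraries was -0.18 for young TOM+ minus adult (SE 0.272, 95% interval -0.77 to 0.41, edgeR padj = 0.637) and -0.36 for young TOM- minus adult (95% interval -0.96 to 0.23, padj = 0.326). Without adult replicate 2 both turned, to 0.36 (padj = 0.0804) and 0.17 (padj = 0.396), and over all alternatives padj ran from 0.0804 to 0.948 and from 0.0193 to 0.839. The direction between ages therefore rested on that library.

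Several chaperone genes were also highest in adult replicate 2. *Fkbp4*, which encodes FKBP52, the relative that promotes receptor transport, was at 88.76, 137.73 and 66.24 TPM in the 3 adult libraries. *Hsp90ab1* was at 895.05, 1038.57 and 471.12 TPM, and *Stip1*, the HSP70 to HSP90 adaptor, at 130.23, 188.1 and 98.16 TPM. Of the 12 chaperone genes, 7 were highest in adult replicate 2 and 9 lowest in adult replicate 3, where 28.7% and 26.8% of all tested genes did the same. *Tsc22d3*, *Klf9*, *Ddit4* and *Sgk1* stood in adult replicate 2 at 0.891, 1.15, 1.37 and 0.796 times the mean of the other adult libraries (CPM), none of them near the ratio of *Fkbp5*. The part of the chaperone genes in the *Fkbp5* value was not tested.

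*Tsc22d3* (chromosome X, 140539528 to 140600522) was by far the most abundant of the 6. GILZ, its leucine zipper product, binds and restrains NF-kB and AP-1. It was at 430.32, 593.3 and 705.22 TPM in young TOM+ cDC2, 445.6, 604.2 and 700.04 TPM in young TOM- DC2, and 932.83, 698.57 and 689.82 TPM in adult TOM+ cDC2. Adult replicate 1 was the highest and both young replicates 1 the lowest. On the TPM scale young and adult ranges overlapped, whereas on the CPM scale they were apart by little, with the highest young library at 778 and the lowest adult library at 783.5 CPM. Ranges on the CPM scale did not overlap for 51.1% (young TOM+ against adult) and 47.6% (young TOM- against adult) of all genes. The log2 difference was -0.54 for young TOM+ minus adult (SE 0.217, 95% interval -1.02 to -0.07, edgeR padj = 0.0647) and -0.56 for young TOM- minus adult (padj = 0.0627), and neither passed. Several alternative fits moved these values past the threshold, with padj between 0.0019 and 0.242 for TOM+ and between 0.00164 and 0.231 for TOM-. The TOM+ difference passed without young TOM+ replicate 3 (-0.75, padj = 0.0253) or without young TOM- replicate 1 (-0.54, padj = 0.0303), and the TOM- difference passed without young TOM+ replicate 1 (-0.56, padj = 0.0248), young TOM+ replicate 3 (-0.58, padj = 0.0411) or young TOM- replicate 3 (-0.75, padj = 0.0348). Other libraries moved it the other way: the TOM+ difference was -0.35 (padj = 0.191) without young TOM+ replicate 1 and -0.37 (padj = 0.242) without adult replicate 1, and the TOM- difference was -0.37 (padj = 0.181) without young TOM- replicate 1 and -0.39 (padj = 0.231) without adult replicate 1.

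The same *Tsc22d3* level recurred in the young library pairs. The number in the deposited library names (81, 91 or 92) is shared by a TOM+ and a TOM- library, and these pairs deviated together over all genes. On the CPM scale the TOM+ to TOM- ratio of *Tsc22d3* was 0.995 for number 81, 1.0 for number 91 and 1.03 for number 92. Across numbers the highest level was 1.75 times the lowest in TOM+ cells and 1.69 times in TOM- cells, so the pairs differed far less within a number than across numbers. *Klf9* was also lowest in both libraries numbered 81, at 1.352 CPM (TOM+) and 1.292 CPM (TOM-), against 1.491 to 2.456 CPM in the other young libraries. The heat shock genes *Hspa1a* and *Hspa1b* ran the other way, with a summed level of 3237.4 and 2677.9 TPM in the libraries numbered 81 and of 742.5 to 1070.5 TPM in the other young libraries. In adults, replicate 1 had the highest sum (2358.2 TPM, against 719.28 and 409.27 TPM) and the highest *Tsc22d3*. Of 9 immediate early and heat shock genes, 6 were lowest and 3 highest of their group in each library numbered 81. Of all tested genes, 26.1% (TOM+) and 24.7% (TOM-) were lowest there, and 52.8% (TOM+) and 52.7% (TOM-) were highest. All 9 were highest in adult replicate 1, beside 29.7% of all tested genes. *Fos* was at 1624.33 and 1540.8 TPM in the libraries numbered 81 and at 2407.52 to 2478.58 TPM in the other young libraries. In adults it was at 4660.14, 3395.76 and 2784.87 TPM. The part of these genes in the *Tsc22d3* values was not tested. Without both libraries numbered 81, *Tsc22d3* was at -0.37 in young TOM+ cDC2 (log2 against adults, edgeR padj = 0.051), which did not pass, and at -0.39 in young TOM- DC2 (padj = 0.0435), which did.

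**Figure D2:**
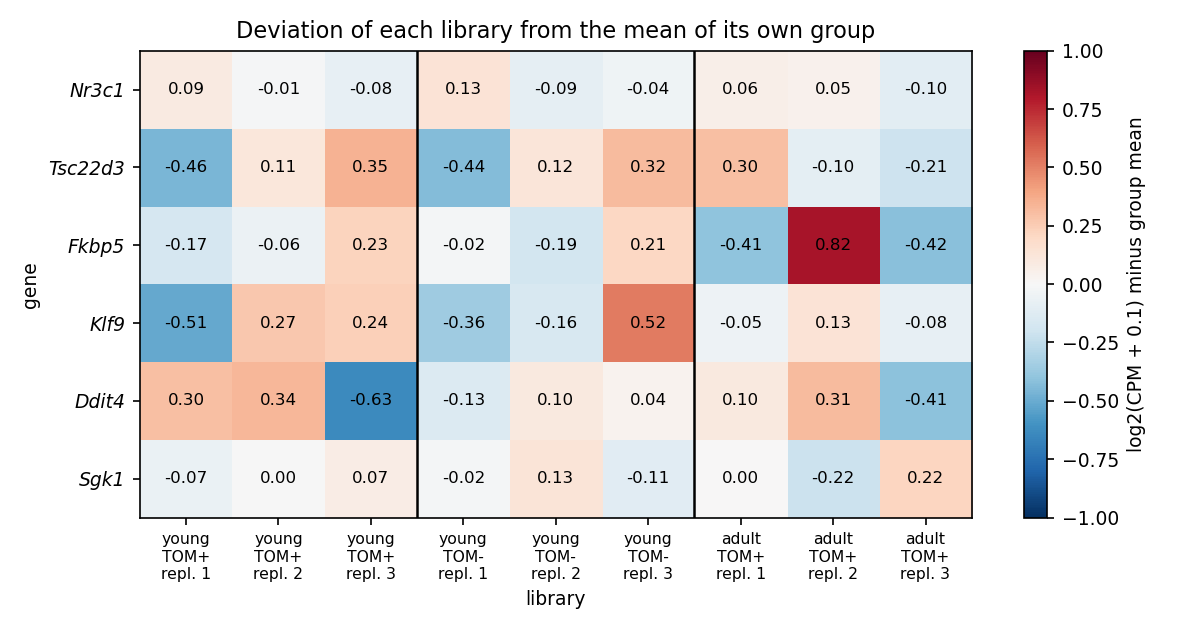
Deviation of each library (columns) from the mean of its own group for each gene (rows), as log2(CPM + 0.1), with red above and blue below the group mean. *Tsc22d3* takes nearly the same values in TOM+ and TOM- libraries of the same replicate (-0.46 and -0.44, 0.11 and 0.12, 0.35 and 0.32), and the darkest cell is *Fkbp5* in adult replicate 2 (0.82).

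*Klf9* (chromosome 19, 23141226 to 23168129) was the least abundant of the 6 and the one that differed most. Its level was 0.73, 1.21 and 1.22 TPM in young TOM+ cDC2, 0.75, 0.75 and 1.24 TPM in young TOM- DC2, and 3.17, 3.69 and 3.21 TPM in adult TOM+ cDC2. The adult libraries lay well above all 6 young libraries, which overlapped each other. These values rest on 27 to 47 counts per library in young TOM+ cDC2, 20 to 58 in young TOM- DC2 and 78 to 103 in adults. The fitted level was 3.47 times lower in young TOM+ than in adult cDC2 (log2 difference -1.79, SE 0.280, 95% interval -2.40 to -1.18, edgeR padj = 0.000298). In young TOM- DC2 it was 3.92 times lower (log2 difference -1.97, SE 0.284, 95% interval -2.59 to -1.35, edgeR padj = 0.000202). Within the library numbers that adults share, the young TOM+ to adult ratio was 0.354 for number 91 and 0.303 for number 92, and the young TOM- to adult ratio 0.22 and 0.319. That these numbers pair adult with young libraries was not established. The direction and the call held in all 20 alternative analyses, with padj of at most 0.00192.

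*Sgk1* (chromosome 10, 21882184 to 21999903) encodes a kinase of the AGC family that lies downstream of mTORC2 and phosphorylates NEDD4L, NDRG1 and FOXO3. It was at 87.54, 86.12 and 90.51 TPM in young TOM+ cDC2, 85.55, 88.45 and 75.14 TPM in young TOM- DC2, and 96.24, 82.04 and 116.28 TPM in adult TOM+ cDC2. Adult replicate 3 was the highest of all and adult replicate 2 lay inside the young range. The log2 difference was -0.41 for young TOM- minus adult (SE 0.110, 95% interval -0.65 to -0.17, edgeR padj = 0.0119) and -0.29 for young TOM+ minus adult (SE 0.110, 95% interval -0.53 to -0.05, padj = 0.0536), so 1 of the 2 passed. With limma on TPM the first fell short of the threshold, with padj of 0.134 to 0.186, while over all alternatives padj ran from 0.00139 to 0.186. The TOM+ difference passed without young TOM- replicate 3 (-0.31, padj = 0.0473) or without adult replicate 2 (-0.39, padj = 0.0138), and with DESeq2's size factors (-0.31, padj = 0.0384), DESeq2 (-0.31, padj = 0.0244), filterByExpr (-0.32, padj = 0.0331) or expected counts (-0.32, padj = 0.0399). It was smaller without adult replicate 3 (-0.17, padj = 0.217), with the library numbers as a block (-0.14, padj = 0.135) and with limma on TPM (-0.14, padj = 0.337 to 0.423). Within numbers 91 and 92, whose pairing of adult with young libraries was not established, the young TOM- to adult ratio was 0.831 and 0.815. The young TOM+ to adult ratio was 0.823 and 1.01 (CPM). Among adult libraries, replicate 3 also had the highest sum of migratory dendritic cell markers (2664.6 TPM, against 1789.7 and 1734.7 TPM), whose part in the *Sgk1* values was not tested.

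Genes for known substrates of SGK1 differed among themselves. *Ndrg1*, named for its regulation by N-myc and a standard readout of SGK1 activity at the protein level, was at 7.93, 6.25 and 9.13 TPM in young TOM+ cDC2, 11.12, 8.84 and 12.13 TPM in young TOM- DC2 and 38.75, 35.3 and 36.97 TPM in adults. That was 5.16 times lower in young TOM+ than in adult cDC2 (log2 difference -2.37, SE 0.156, edgeR padj = 6.04e-07) and 3.89 times lower in young TOM- DC2 (padj = 2.58e-06). *Foxo3*, a forkhead factor of stress resistance, was 2.76 times lower in young TOM+ cDC2 (padj = 9.02e-05). In young TOM- DC2 it was at 3.11 to 5.32 TPM, against 6.05 to 9.03 TPM in adults. *Nedd4l* did not pass, at -0.16 and -0.15 on the log2 scale. Phosphorylation was not measured here.

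*Ddit4* (chromosome 10, 59949675 to 59951770) encodes REDD1, which restrains mTORC1 through the TSC1-TSC2 complex. It was at 25.94, 24.77 and 12.55 TPM in young TOM+ cDC2, 15.16, 16.19 and 15.44 TPM in young TOM- DC2, and 19.85, 23.15 and 14.57 TPM in adult TOM+ cDC2. The TOM- libraries were tight, while young TOM+ replicate 3 was at 0.515 times the mean of its group's other libraries (CPM). The log2 difference was 0.02 for young TOM+ minus adult (SE 0.238, 95% interval -0.49 to 0.54, edgeR padj = 0.948) and -0.43 for young TOM- minus adult (95% interval -0.95 to 0.10, padj = 0.186). Of 16 genes of the mTOR and SGK1 pathway, which include *Ndrg1* and *Foxo3*, 4 were higher and 5 lower in young TOM+ than in adult cDC2 (56.2% passing, beside 40.6% of all genes), and 3 were higher and 4 lower in young TOM- DC2 (43.8%, beside 36.3%). The partners of REDD1 split: *Tsc2* was higher (log2 difference 0.38, padj = 0.0097) and *Tsc1* lower (-0.32, padj = 0.0205) in young TOM+ cDC2. *Mtor* itself did not pass, at -0.03 and -0.06. Of 11 genes of amino acid stress and hypoxia, the other inputs of *Ddit4*, 3 were higher and 2 lower in young TOM+ than in adult cDC2 (45.5%, near the 40.6% of all genes), and 4 were higher and 2 lower in young TOM- DC2 (54.5%, beside 36.3%). Asparagine synthetase (*Asns*) was 2.64 times higher (padj = 0.0172) and the growth factor gene *Vegfa* 2.29 times lower (padj = 7.21e-05) in young TOM+ cDC2. In young TOM- DC2 *Asns* was 3.13 times higher (edgeR padj = 0.00775), and *Vegfa* was at 72.72 to 96.28 TPM against 137.91 to 166.18 TPM in adults. *Ankrd37*, a hypoxia-induced gene, was 2.51 and 2.77 times higher in young TOM+ and TOM- cells (padj = 0.00121 and 0.000683).

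**Figure D3:**
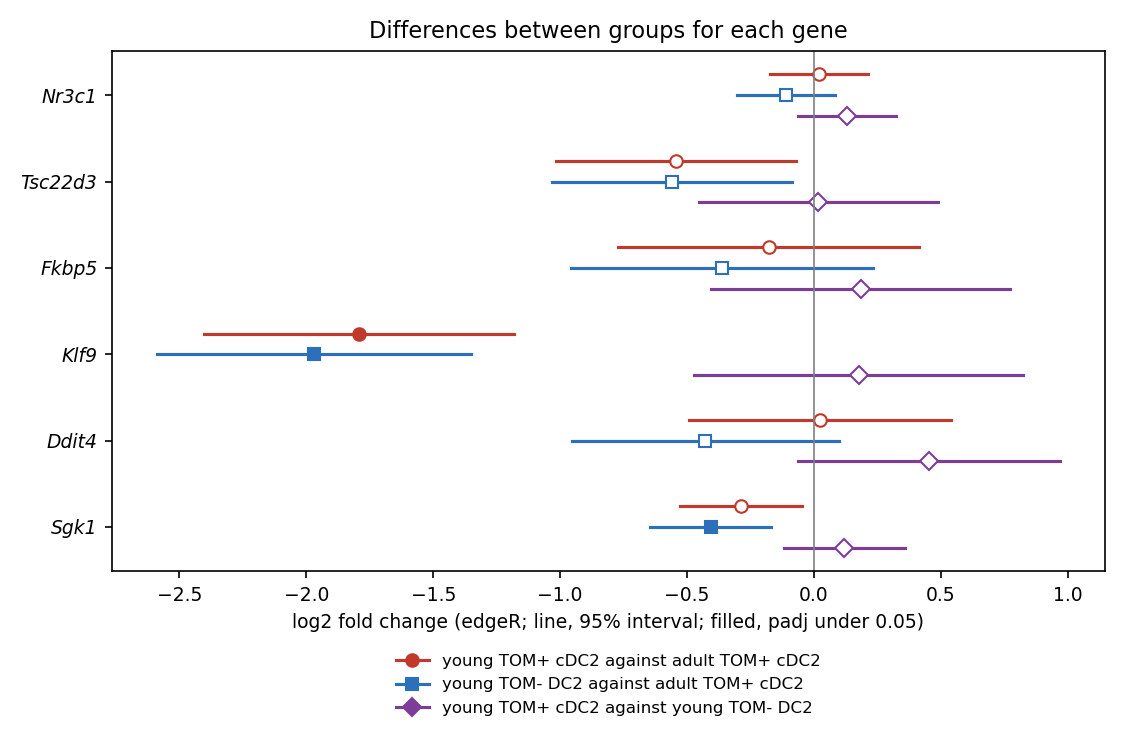
Log2 fold change of each gene (rows) in the 3 comparisons with its 95% interval from edgeR, where filled symbols passed (padj under 0.05). *Klf9* at -1.79 and -1.97 lies left of the other genes in both comparisons with adults, and every interval for young TOM+ against young TOM- cells includes 0.

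Between young TOM+ cDC2 and young TOM- DC2, 0 of the 6 genes passed with edgeR, with DESeq2 or with limma, beside 1.60% of all genes tested with edgeR. At an unadjusted p under 0.05 the count was also 0 in edgeR without pairing, beside 9.38% of all genes, but it was 1 (*Ddit4*) with no filter or without young TOM+ replicate 3 and 2 with the library numbers as a block, where *Nr3c1* was at 0.13 (edgeR padj = 0.196). Within the 3 numbers the TOM+ to TOM- ratio was above 1 throughout for *Nr3c1* (1.06, 1.16 and 1.06, CPM) and for *Fkbp5* (1.03, 1.24 and 1.15). The difference nearest to passing was that of *Ddit4* (log2 difference 0.45, 95% interval -0.06 to 0.97, edgeR padj = 0.631). Without young TOM+ replicate 3, the lowest of its group, the *Ddit4* difference was 0.71 (edgeR padj = 0.121). All 6 fitted values lay above 0, from 0.02 for *Tsc22d3* to 0.45 for *Ddit4*, but every interval included 0. The median over all genes was 0.001. For *Nr3c1* the interval was -0.06 to 0.32 and for *Klf9*, the gene with the fewest counts, -0.47 to 0.83.

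Other genes that glucocorticoids are known to induce passed in both directions. Of 24 such genes, 23 were tested (*Hif3a* was too low). In young TOM+ against adult cDC2, 4 were higher and 11 lower, beside 21.0% and 19.5% of all genes, and in young TOM- DC2 4 were higher and 10 lower, beside 19.4% and 16.9%. The median log2 difference over the list was -0.40 and -0.39, beside 0.05 and 0.07 over all genes. *Bcl6*, a transcriptional repressor, was 2.97 and 3.1 times lower in young TOM+ and TOM- cells than in adults (padj = 4.43e-05 and 4.23e-05). *Il1r2*, the decoy receptor for interleukin-1, was 2.83 and 2.43 times lower (padj = 8.4e-05 and 0.000324). *Arrdc2*, an arrestin-domain gene, was 2.08 and 2.17 times lower (padj = 8.68e-05 and 7.29e-05).

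*Per1*, *Dusp1* and *Zfp36*, widely used as readouts of the hormone, were among the lower genes. *Per1*, a clock gene with a known glucocorticoid response element, was 2.0 times lower in young TOM+ cDC2 (padj = 0.000191). In young TOM- DC2 it was at 39.36 to 59.99 TPM, against 78.74 to 91.6 TPM in adults. *Dusp1*, the phosphatase that switches off MAP kinases, was at -0.77 and -0.82 (padj = 0.0198 and 0.0164), and *Zfp36*, whose product destabilises cytokine mRNAs, at -0.83 and -0.92 (padj = 0.000484 and 0.000277). *Dusp1* and *Zfp36* also answer to inflammatory signals and to cell handling. Of the genes that were higher, the metallothionein gene *Mt2* (2.71 and 2.73 times, padj = 0.0246 and 0.0261) and the annexin gene *Anxa1* (1.56 and 1.44 times, padj = 0.000163 and 0.00083) passed in both young groups, *Angptl4* passed in young TOM+ cDC2 (2.17 times higher, padj = 0.0245) and the efferocytosis receptor gene *Mertk* in young TOM- DC2 (3.97 times higher, padj = 0.00573). *Cd163*, the haemoglobin scavenger receptor, was also higher, at 5.01, 3.48 and 4.54 TPM in young TOM+ cDC2, 2.13, 2.46 and 2.27 TPM in young TOM- DC2 and 0.57, 0.91 and 0.98 TPM in adults. It was 4.54 times higher in young TOM+ than in adult cDC2 (padj = 1.06e-05), and it was the 1 gene of the 23 that passed between the young groups (1.93 times higher in TOM+ cells, padj = 0.026). *Cd163* is also a macrophage gene, and the summed macrophage markers were 133.9 to 166 TPM in young TOM+, 211.8 to 263.9 TPM in young TOM- and 91.49 to 134.9 TPM in adult cells.

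Of the inflammatory genes that glucocorticoids hold back, all that passed were lower in young cells. Of 15, 13 were tested (*Csf2* and *Nos2* were too low), and 8 were lower and 0 higher in young TOM+ than in adult cDC2 (61.5%, beside 40.6% of all genes passing and 19.5% lower). In young TOM- DC2 7 were lower and 0 higher (53.8%, beside 36.3% passing and 16.9% lower). The median log2 difference over the list was -1.13 and -0.53, beside 0.05 and 0.07 over all genes. *Il12b*, which encodes the shared chain of interleukin-12 and interleukin-23, was 3.45 and 3.27 times lower, *Cxcl10* 2.36 and 2.06 times lower and *Ptgs2*, the inducible prostaglandin synthase, 2.52 and 2.2 times lower in young TOM+ and TOM- cells than in adults (edgeR padj of at most 9.11e-05). *Il1b*, the interleukin-1β gene, was 2.34 times lower in young TOM- DC2 (padj = 5.46e-05). In young TOM+ cDC2 it was at 2686.43 to 3275.77 TPM, against 5364.56 to 7076.76 TPM in adults. *Mmp9*, a gelatinase gene, was at 0.17, 0.06 and 0.32 TPM in young TOM+ cDC2, 12.92, 7.9 and 14.68 TPM in young TOM- DC2 and 48.47, 34.72 and 107.15 TPM in adults, and it passed in all 3 comparisons: in young TOM+ against adult (padj = 6.04e-07), in young TOM- against adult (5.86 times lower, padj = 0.000133) and between the young groups (padj = 0.000174). In the list of induced genes and in that of repressed genes alike, more genes were lower than higher in young cells.

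**Figure D4:**
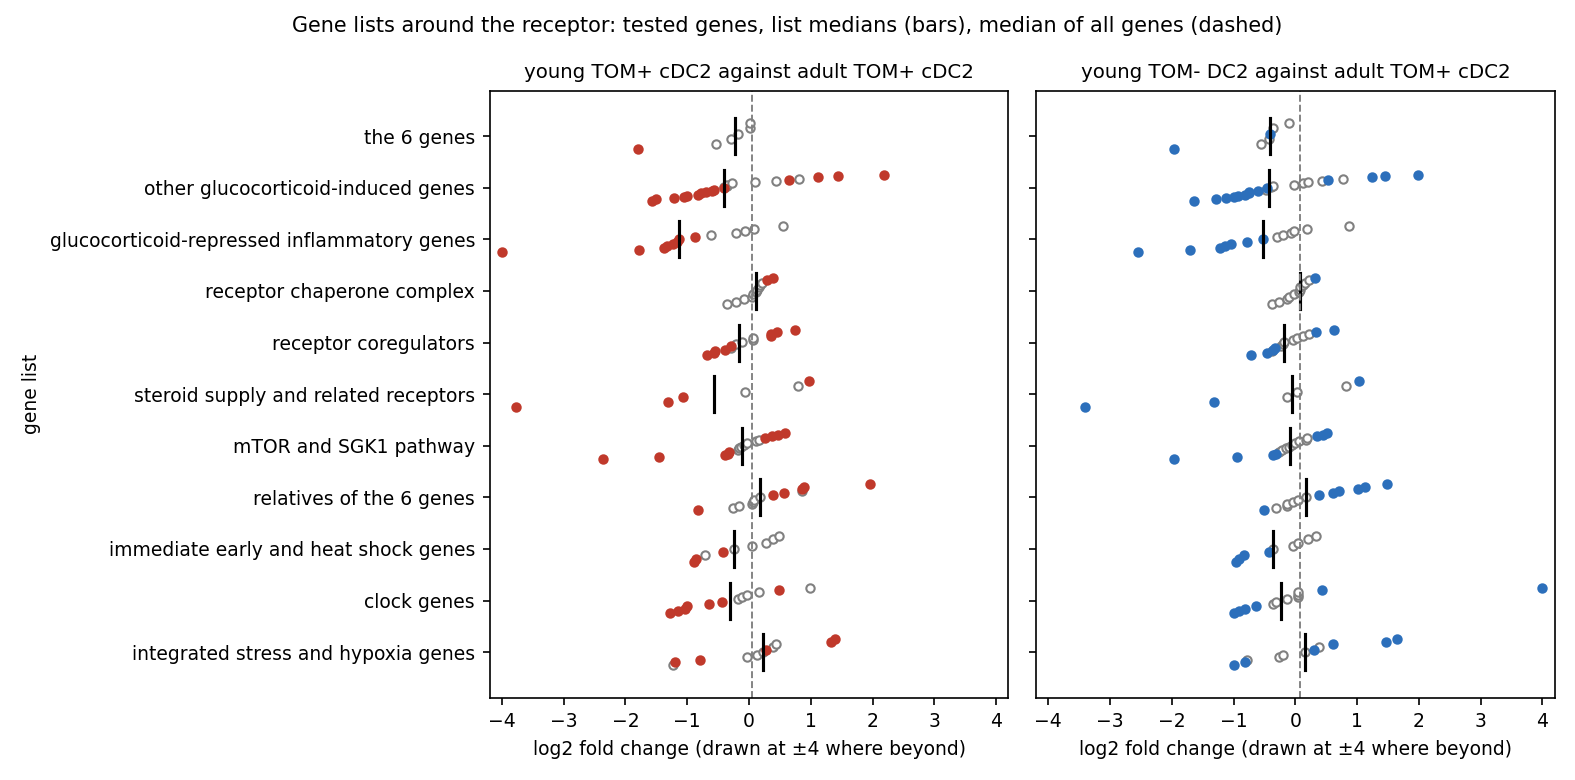
Log2 fold changes (horizontal axes) of the tested genes of each gene list (rows) in young TOM+ cDC2 (left) and young TOM- DC2 (right) against adult TOM+ cDC2. Filled points passed, black bars are medians of the genes drawn, the dashed line is the median of all genes, values beyond 4 are drawn at 4, and genes with at most 3 counts in every library of a group are left out. The points of the repressed inflammatory genes lie mostly left of 0 and those of the chaperone complex close to it.

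Among enzymes and carriers that set the supply of active steroid, few reads came from the hormone-regenerating enzyme. Of 11 genes of this kind and of related receptors, 8 were tested, and 1 was higher and 3 lower in young TOM+ than in adult cDC2 (4 of 8, beside 40.6% of all genes), against 2 higher and 2 lower in young TOM- DC2 (4 of 8, beside 36.3%). *Hsd11b1*, whose enzyme regenerates active hormone inside cells, had at most 7 counts per library in young TOM+ cDC2, 12 in young TOM- DC2 and 2 in adults. *Hsd11b2*, whose enzyme inactivates the hormone, was 2.1 times lower in young TOM+ cDC2 than in adults (padj = 0.0256). *H6pd*, which supplies the hormone-regenerating enzyme of *Hsd11b1* with its cofactor, was 2.04 times higher in young TOM- DC2 than in adults (padj = 6.66e-05). Its level was similar in both young groups, at 6.66 to 7.79 TPM in TOM+ and 6.51 to 8.82 TPM in TOM- cells, against 3.13 to 3.81 TPM in adults. *Abcb1a*, a pump that exports corticosteroids, was 2.47 and 2.5 times lower in young TOM+ and TOM- cells (padj = 3.28e-05 and 3.86e-05). The oestrogen receptor gene *Esr1* was 13.7 and 10.6 times lower, at 0.06 to 0.25 TPM in young and 1.2 to 1.98 TPM in adult libraries (padj = 1.81e-05 and 3.95e-05).

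Most of the nearest relatives of the 6 genes that passed were higher in young cells. Of 18, 17 were tested, and 8 (47.1%) passed in each young group against adults, beside 40.6% and 36.3% of all genes. In each young group 7 were higher and 1 lower than in adults. Of all genes, 21.0% and 19.4% passed as higher in young TOM+ and TOM- cells, and 19.5% and 16.9% as lower. The lower gene was *Tsc22d1* (log2 difference -0.83 and -0.51, padj = 9.63e-05 and 0.00344), the relative of *Tsc22d3*, while *Tsc22d2* and *Tsc22d4* did not pass. *Sgk3* did not pass (0.04 and -0.04), and *Sgk2* was too low to test. The higher genes were mostly small FK506-binding proteins such as *Fkbp1a*, the target of rapamycin and tacrolimus (0.57 and 0.61, padj = 0.000199 and 0.000151), and *Fkbp1b* (3.9 and 2.8 times higher, padj = 6.77e-05 and 0.000701). In young TOM- DC2 *Fkbp7* (2.03 times higher, padj = 0.0216) and *Fkbp9* (2.19 times higher, padj = 0.0452) passed as well. In young TOM+ cDC2 *Fkbp7* was at 2.94 to 3.41 TPM, against 1.11 to 1.75 TPM in adults. *Ddit4l* and *Fkbp10* were also among them in young TOM+ cDC2 with at most 6 and 17 counts per library, and had 0 counts in every adult library. The median log2 difference over the list was 0.57 and 0.18, beside 0.05 and 0.07 over all genes. With genes at 0 to 3 counts set to a bound of 3 counts per library, the list median was 0.08 and 0.06.

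Glucocorticoids rise and fall over the day, and the labels give no time of day for the sorts. Of 12 clock genes found, 1 was higher and 6 lower in young TOM+ than in adult cDC2 (58.3%, beside 40.6% of all genes), and 2 were higher and 4 lower in young TOM- DC2 (6 of 12, beside 36.3%). *Nr1d1*, which encodes the clock repressor REV-ERBα, was at 0.76, 0.26 and 0.55 TPM in young TOM+ cDC2, 10.06, 9.05 and 14.11 TPM in young TOM- DC2 and 0.2, 0.4 and 0.19 TPM in adults. It was 39.5 times higher in young TOM- DC2 than in adults (edgeR padj = 8.37e-07) and 19.8 times higher than in young TOM+ cDC2 (padj = 8.78e-06), and it was the 1 clock gene that passed between the young groups. It overlaps *Thra* on the opposite strand, and the counts keep no strand. The young TOM- libraries were also those with markers of group 3 innate lymphoid cells (22.72 to 30.07 TPM, against at most 0.89 TPM elsewhere), whose part in the *Nr1d1* level was not tested. *Nr1d2* (2.21 times lower, padj = 2.52e-05) and *Arntl* (2.05 times lower, padj = 7.63e-05), which act in opposite arms of the clock, were both lower in young TOM+ cDC2, and *Per3* was 2.43 times lower (padj = 0.00428). In young TOM- DC2 these 3 genes were at 8.6 to 9.28, 7.68 to 8.78 and 0.44 to 1.15 TPM. In adults they were at 13.05 to 17.46, 9.62 to 13.47 and 0.97 to 1.54 TPM. Of 9 immediate early and heat shock genes, 0 were higher and 3 lower in young TOM+ than in adult cDC2 (33.3%, under the 40.6% of all genes), and 0 were higher and 4 lower in young TOM- DC2 (44.4%, beside 36.3%). *Egr1* was 1.86 and 1.94 times lower (padj = 0.00626 and 0.00491) and *Fos* 1.8 and 1.87 times lower (padj = 0.0158 and 0.0127). The part of these genes in the values of the 6 was not tested.

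The genes whose course over the 9 libraries lay closest to each of the 6 were sought among 10111 genes, by the root mean square difference of centred log2(TPM + 1). For *Klf9* they were *Btg2* (0.112), *Tnfrsf1b* (0.118) and *Rassf3* (0.14), with *Btg2* at 1060 and 1020 TPM in young TOM+ and TOM- cells and 2250 TPM in adults. For *Tsc22d3* they were *Klf6* (0.05), *Arl4a* (0.122) and *Vps37b* (0.124). For *Sgk1* they were *Lrrc57* (0.052), *Mtm1* (0.068) and *Rasgrp1* (0.077), and for *Nr3c1* they were *Coro1c* (0.036), *Noc2l* (0.038) and *Dusp12* (0.044). No gene came that close to *Fkbp5* (*Pomt2*, 0.181) or *Ddit4* (*B3gnt8*, 0.177). None of the 6 was among the 3 nearest genes of another. The distance between *Tsc22d3* and *Klf9* was 0.394 and that between *Nr3c1* and *Sgk1*, the smallest among the 6, was 0.224.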

How the data were processed

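Total RNA of sorted cells had been amplified with the SMART-seq v4 kit, which does not mark strand, and sequenced single-end. Per the paper's methods, the authors aligned reads to mm10 with STAR and calculated TPM with RSEM (versions not given in the sources used here). The deposited tables hold STAR's counts per gene, of which the column without strand was used, and RSEM's TPM and expected counts, with RefSeq transcript identifiers. Reads assigned to no gene (26.14 to 31.63% of each library's reads, multimapping ones included) were left out. The counts were fitted here with edgeR 4.0.16 (R 4.3.3), TMM scaling, 3 groups, an average count of at least 1 and Benjamini-Hochberg adjustment; log2 differences have standard errors from the quasi-likelihood F. Levels are the deposited TPM; CPM is TMM-scaled. Deposited expected counts were rounded for an alternative fit. Other fits used DESeq2 1.42.0, limma 3.58.1 on log2(TPM + 1) and log2(TPM + 0.1), other filters and scalings, each library left out in turn, and a replicate block. The young library numbers pair the groups by the data: deviations from group means correlated at 0.746, 0.501 and 0.517 over 10112 genes in same-number libraries, and the block changed no call for the 6 genes between them. On simulated counts for young TOM+ against adult cDC2 (14271 genes), edgeR recovered 93% of genes changed by 1.5 and 100% of those changed by 2 on the log2 scale. It made 13 false calls. Smaller changes were not simulated, so these rates do not cover the smaller differences of the 6 genes other than *Klf9*. The members and gene lists were chosen with earlier results of these data known. Named from each list were up to 4 genes per comparison with the smallest padj among those with padj under 0.05 and a log2 difference beyond 1, or, where there were none, up to 2 with the smallest padj; other genes named (*Dusp1*, *Zfp36*, *Per1* among induced genes, *Hsp90ab1*, *Fkbp4*, *Stip1*, *Hspa1a*, *Hspa1b*, *Nr3c2*, *Tsc1*, *Tsc2*, *Mtor*, *Nedd4l*, *Anxa1*, *Angptl4*, *Mt2*, *Mertk*, *Cd74*, *H2-Ab1*, *Itgam*, *Sirpa* and most relatives of the 6 genes) were chosen after their values were seen. Some genes that the rule names are not reported here.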

Additional observations from a re-analysis of the deposited data

How the results depend on the processing

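*Klf9* kept its direction and its call against adults in all 20 alternatives, from -1.94 to -1.09 on the log2 scale for young TOM+ cDC2 and from -2.35 to -1.20 for young TOM- DC2. For young TOM+ against adult cDC2, the count of the 6 genes that passed (1) was 2 with DESeq2's size factors, with no filter, with expected counts, with only the 2 groups or with the replicate block, and 3 with DESeq2 or filterByExpr; with each library left out in turn it was 1 to 2. For young TOM- DC2 against adults (2 passing) it was 1 with limma on log2(TPM + 1), with or without a filter, or on log2(TPM + 0.1), 6 with the replicate block, and 2 to 3 with a library left out. Between young groups it was 0 throughout. Over all genes, calls with padj under 0.05 and a log2 difference beyond 1 went from 1853 to 1121 and 1123 (limma on log2(TPM + 1), without a filter the latter) for young TOM+ against adults, 1638 to 1887 with a library left out; from 1631 to 965 and 994 for young TOM-, 1486 to 1679 with a library left out; and from 170 between young groups to 90 and 85 with limma (pseudocounts 1 and 0.1), 274 with the replicate block, and 126 to 176 with a library left out.

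Differences near 0 changed sign. For young TOM+ minus adult, *Nr3c1* (0.02) was -0.0051 with DESeq2's size factors, -0.0048 with DESeq2, -0.0097 with filterByExpr, -0.0133 with expected counts, -0.0891 with the replicate block, -0.0498 without both libraries numbered 81, and -0.0313 to 0.0482 with a library left out. *Ddit4* (0.02) was -0.0027 with DESeq2, -0.0037 with filterByExpr, -0.0298 with expected counts, -0.2382 with the block, -0.1347 without both libraries numbered 81, and -0.1625 to 0.2602 with a library left out. *Fkbp5* (-0.18) was 0.0506 with limma on log2(TPM + 1), also without a filter, 0.0565 on log2(TPM + 0.1), and -0.3936 to 0.3552 with a library left out. For young TOM- minus adult, *Nr3c1* (-0.11) was 0.0373 and 0.0381 in the limma fits, and *Fkbp5* (-0.36) was -0.577 to 0.1718 with a library left out. Between young groups, *Tsc22d3* (0.02) was -0.0219 and -0.022 in the limma fits and -0.1709 to 0.2131 with a library left out. The causes were not tested.

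The library numbers pair adults with young libraries only for 91 and 92, where deviations correlated at 0.157 and -0.003 (TOM+) and 0.144 and 0.131 (TOM-), so the pairing of adults was not established. With the replicate block, in which adult replicate 3 stands alone and adds nothing, *Tsc22d3* was at -0.45 (padj = 0.0019) and -0.47 (padj = 0.00164) against adults with edgeR, and for young TOM- minus adult *Nr3c1* was at -0.22 (padj = 0.0111), *Fkbp5* at -0.47 (padj = 0.0193) and *Ddit4* at -0.65 (padj = 0.0193). *Klf9* counts were low (20 to 103), 3 libraries a group limit what can be called, and ages differ in the share of migratory markers.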
